A study of Mus musculus with 9 samples.

Results

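The Ikaros family comprises 5 transcription factor genes, Ikzf1 (Ikaros), Ikzf2 (Helios), Ikzf3 (Aiolos), Ikzf4 (Eos) and Ikzf5 (Pegasus). They were followed in RNA-seq counts of helper (CD4+) T lymphocytes from mice with a conditional knockout of Kdm6a and from their controls. The family was chosen by gene name, as the 5 of 39017 gene IDs in the count table whose Ensembl ID maps to these symbols, and with the cKO and WT values of these samples already known. Differences of the 5 genes between the genotypes are therefore given as a description, without a test. All 5 passed the filter on low counts, as did 14693 genes in all.

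All mice were male C57BL/6 animals with a floxed Kdm6a on their X chromosome. Kdm6a encodes a demethylase of lysine 27 of histone H3, and the comparison addresses how other genes depend on it. CD4-Cre (+/-) was present in the 4 cKO samples, which are replicates 2, 6, 7 and 8. Here the Cd4 promoter drives the recombinase, so that floxed Kdm6a is recombined in lineages that pass through a Cd4-expressing stage. The 5 WT samples (replicates 1, 3, 4, 5 and 9) were CD4-Cre (-/-) and kept the floxed allele intact. Cells came from lymph nodes, and the labels give no age and no treatment of the cells. The count table's own name, however, contains "stim", and whether or how the cells were stimulated is not stated. Il2ra, Tnfrsf9, Tnfrsf4 and Tnfrsf18, which are read below as regulatory T cell genes, are also induced when conventional T cells are activated.

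Ikaros family proteins bind DNA through zinc fingers near their N-terminus and pair with each other through zinc fingers at the C-terminus. In lymphocytes they act as repressors or activators together with chromatin complexes, above all the nucleosome remodelling and deacetylase (NuRD) complex. Ikaros is required for normal lymphocyte development, Helios and Eos are known from regulatory T cells, and Aiolos is known from B cells and from helper T cell differentiation. Pegasus is the most distant relative and recognises a different DNA sequence.

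The coding sequence of 1 N-terminal zinc finger shows how close the members are, and it is printed because reads of similar genes could in principle be shared between them. Each stretch runs from the first zinc-binding cysteine codon to the last zinc-binding histidine codon, and the capitals mark these 4 codons. It is the second finger found in Ikzf1 to Ikzf4, the finger that in human Ikaros and Aiolos carries the element bound by cereblon in the presence of lenalidomide. For Ikzf5 it is the first finger. The sequences were taken from the GENCODE M21 transcripts, 5′ to 3′ on the coding strand.
Ikzf1: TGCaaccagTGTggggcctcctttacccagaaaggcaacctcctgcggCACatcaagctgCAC
Ikzf2: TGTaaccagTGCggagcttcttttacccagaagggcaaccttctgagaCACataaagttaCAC
Ikzf3: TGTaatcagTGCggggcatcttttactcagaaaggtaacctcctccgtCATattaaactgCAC
Ikzf4: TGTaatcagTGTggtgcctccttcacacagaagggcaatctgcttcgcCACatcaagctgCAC
Ikzf5: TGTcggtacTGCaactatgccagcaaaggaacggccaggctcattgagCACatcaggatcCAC

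Over these 63 bases, Ikzf2 matched Ikzf1 at 51, Ikzf3 at 51, Ikzf4 at 53 and Ikzf5 at 29. The 21 encoded residues were the same in Ikzf1, Ikzf2, Ikzf3 and Ikzf4, whereas 6 of 21 in Ikzf5 were the same as in Ikzf1. The base differences thus fall at synonymous positions in the first 4 genes. Over whole transcripts no stretch of 50 bases was shared by any pair of members. At 25 bases, Ikzf1 and Ikzf3 shared 2 stretches and Ikzf2 and Ikzf4 shared 4, so a read of 50 bases or longer from one gene has no identical copy in another.

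The genes lie apart on the mm10 build, in GENCODE M21 coordinates. Ikzf1 (ENSMUSG00000018654) spans chr11:11685003-11772926 on the plus strand. Ikzf2 (ENSMUSG00000025997) spans chr1:69531214-69687245, Ikzf3 (ENSMUSG00000018168) chr11:98464902-98546031, Ikzf4 (ENSMUSG00000002578) chr10:128630843-128645991 and Ikzf5 (ENSMUSG00000040167) chr7:131388652-131410521, all 4 on the minus strand. The counts cover whole genes, so isoforms of Ikaros or Helios cannot be told apart. Counted genes that overlap a member had fewer reads than that member, given here as CPM, counts scaled to TMM-adjusted library totals. The most abundant was Pstk, which overlaps Ikzf5, at 13.1 CPM in cKO and 12.4 CPM in WT. Ikzf5 itself averaged 32.8 CPM in cKO and 31.5 CPM in WT, so Pstk was not small beside it. Gm12000, which overlaps Ikzf1, followed at 3.83 and 3.82 CPM. Reads in those overlaps cannot be assigned with certainty, since the strand setting of the counting is not given in the sources used here.

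Total counts ran from 20587482 to 26387488 per sample. Kdm6a averaged 42.7 ± 1.48 CPM in cKO (SD, n = 4) and 62.7 ± 1.59 CPM in WT (SD, n = 5), with no overlap, a log2 change of -0.55 ± 0.04 (SE) and an adjusted p of 2.89e-05 (edgeR's quasi-likelihood test, Benjamini-Hochberg). Reads of Kdm6a thus remained in the cKO samples. Whole-gene counts do not separate transcripts without the floxed part from intact ones, and how completely the allele was recombined was not tested. The CD4+ label was met, as Cd4 averaged 957 CPM in cKO and 873 CPM in WT, and Cd28 592 and 550 CPM. The 6 T cell markers summed to between 2348 and 2509 CPM in cKO and between 2216 and 2396 CPM in WT. At an adjusted p below 0.05 by edgeR, 2 of them were higher and 2 lower in cKO. Among all tested genes the shares were 7.0% and 8.82%. The 8 B cell markers summed to between 256 and 292 CPM in cKO and between 241 and 352 CPM in WT, nearly all of it Ighm, while Cd79b averaged 0.911 CPM in cKO and 1.72 CPM in WT. The 2 CD8 markers summed to between 15.1 and 19.1 CPM in cKO and between 11.9 and 15.1 CPM in WT. Cd8b1 averaged 14.1 CPM in cKO and 11.6 CPM in WT, without overlap (adjusted p = 0.0296 by edgeR). Cd8a averaged 2.70 CPM in cKO and 1.80 CPM in WT, with overlap (adjusted p = 0.217 by edgeR). The 4 natural killer markers summed to between 12.8 and 45.4 CPM in cKO and between 6.83 and 19.9 CPM in WT, led by Eomes at 20.4 CPM in cKO and 10.9 CPM in WT, with the highest sum in cKO 2. Klrd1, of the same list, averaged 3.30 CPM in cKO and 1.10 CPM in WT, without overlap, while the defining marker Ncr1 averaged 0.056 CPM in cKO and 0.032 CPM in WT. The 7 macrophage and dendritic cell markers, led by Csf1r and Cd68, summed to between 17.9 and 21.8 CPM in cKO and between 16.1 and 20.4 CPM in WT. The 3 erythroid markers stayed at or below 0.124 CPM in every sample. The part of these cells in the values below was not tested. In bulk RNA, fewer cells of a type and less RNA per cell cannot be told apart.

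Helios was the member that differed most between the genotypes. Ikzf2 was at 118, 128, 110 and 130 CPM in cKO, against 92.1, 90.6, 85.2, 91.5 and 82.6 CPM in WT. Every cKO sample lay above every WT sample. The means were 121 ± 9.44 CPM in cKO (SD, n = 4) and 88.4 ± 4.25 CPM in WT (SD, n = 5), a fitted log2 change of 0.46 ± 0.06 (SE), or 1.37-fold in means. The log2 change lay between 0.42 and 0.50 with any 1 sample left out.

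Aiolos was lower in 3 of the 4 cKO samples than in any WT sample, and highest of all in the other. Ikzf3 was at 193, 116, 123 and 130 CPM in cKO, against 157, 164, 161, 169 and 139 CPM in WT. The groups overlapped because of cKO 2, which at 193 CPM stood above all 8 other samples. With all samples the log2 change was -0.17 ± 0.13 (SE). Without cKO 2 it was -0.36 ± 0.06 (SE), with no overlap, so the size of the difference for Aiolos rests on 1 sample.

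The same sample marked an extreme for other members. Ikzf4, which encodes Eos, a partner of the regulatory T cell factor Foxp3, was at 66.1, 75.9, 80.4 and 87.7 CPM in cKO, against 82.6, 82.7, 80.0, 70.6 and 81.3 CPM in WT. The lowest and the highest of all 9 values were both cKO samples, and the groups overlapped. The log2 change was -0.04 ± 0.08 (SE), and 0.03 ± 0.06 (SE) without cKO 2, so its sign is not settled by these samples. Ikzf5 was at 35.8, 29.3, 33.9 and 32.1 CPM in cKO, against 31.0, 29.0, 34.1, 30.0 and 33.2 CPM in WT. The groups overlapped throughout, and the log2 change was 0.06 ± 0.07 (SE). The sample cKO 2 thus held the highest Ikzf3 and Ikzf5 and the lowest Ikzf4 of the series.

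Ikaros itself was the most abundant and the steadiest member. Ikzf1 was at 1048, 1011, 1126 and 1069 CPM in cKO, against 999, 998, 1078, 1005 and 1114 CPM in WT. The ranges overlapped almost fully, and the log2 change was 0.03 ± 0.04 (SE).

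**Figure D1:**
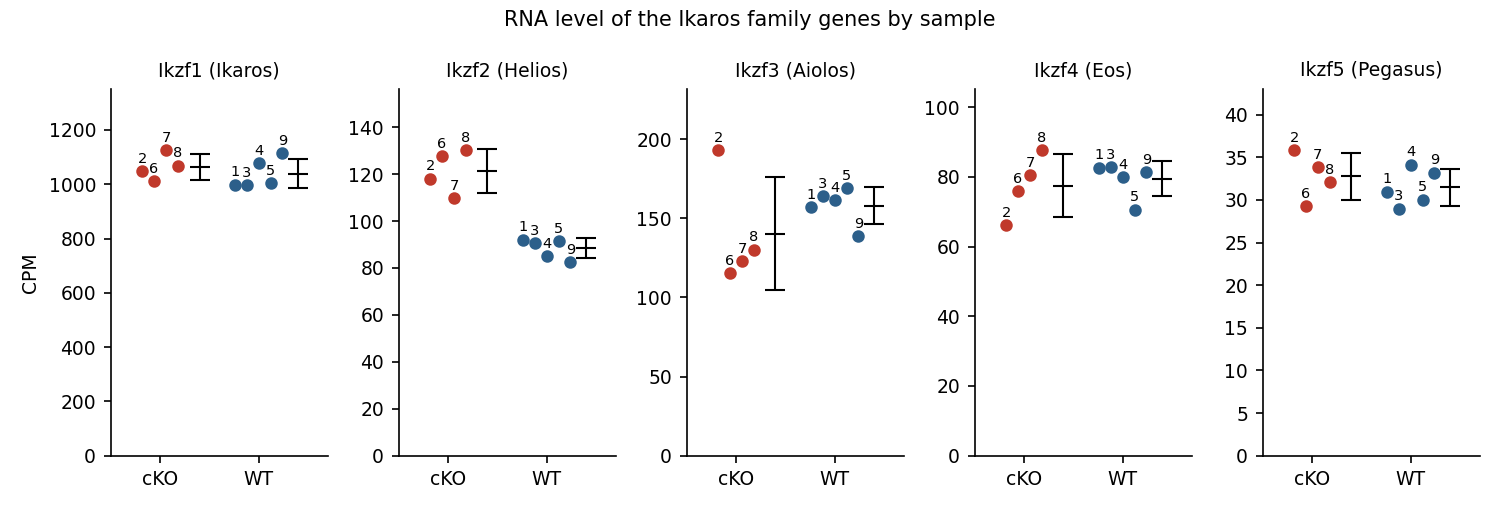
Level of each Ikaros family gene in CPM, 1 point per sample with its replicate number, for 4 cKO and 5 WT samples, with black bars for the mean ± SD. Ikzf2 is the gene without overlap, with cKO at 110 CPM or more and WT at 92.1 CPM or less, and Ikzf3 in cKO 2 stands at 193 CPM, above all other samples.

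In the fit over all genes, 15.8% of 14693 tested genes passed an adjusted p of 0.05 (7.0% higher and 8.82% lower in cKO), and 15.9% had no overlap between the genotypes. Of the 5 members, 1 met the first rule and the same 1, Ikzf2, had no overlap. Without cKO 2, Ikzf3 met it too. As the members were chosen with this contrast in view, nothing is read from these counts. The median log2 change of all tested genes was 0.00.

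**Figure D2:**
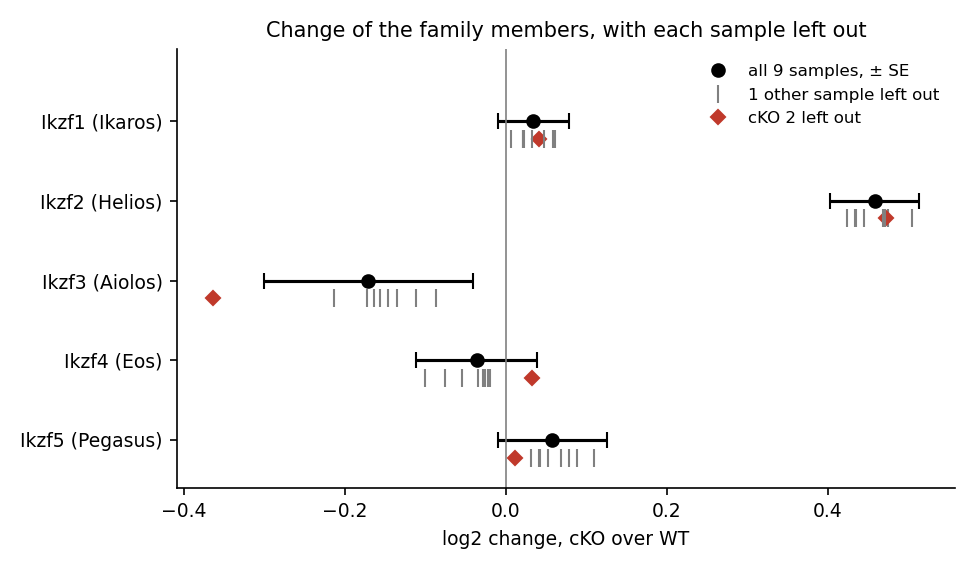
Fitted log2 change, cKO over WT, of each member with its SE for all 9 samples (black), and below it the values with 1 sample left out (grey ticks, red diamond for cKO 2). Ikzf2 stays between 0.42 and 0.50, whereas Ikzf3 goes to -0.36 and Ikzf4 to 0.03 without cKO 2.

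Levels of different genes were compared per kilobase of merged exon length. Ikzf1 was at 184 ± 8.29 CPM per kb in cKO and 180 ± 9.29 CPM per kb in WT (SD, n = 4 and 5, as for all values of this kind). Ikzf3 followed at 16 ± 4.07 in cKO and 18.1 ± 1.32 in WT, then Ikzf4 at 12.9 ± 1.51 in cKO and 13.3 ± 0.843 in WT. Ikzf2 was at 10.5 ± 0.813 CPM per kb in cKO and 7.61 ± 0.366 CPM per kb in WT, and Ikzf5 was lowest at 5.73 ± 0.487 in cKO and 5.50 ± 0.377 in WT. Ikaros RNA per kb was thus 11.5 times that of Aiolos in cKO and 9.95 times in WT. This multiple depends on the length used and was smaller on 2 others. Per kb of the longest transcript, Ikzf1 and Ikzf3 averaged 201 and 34.3 CPM in WT. Per kb of coding sequence they averaged 647 and 104 CPM in WT.

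This order held in all 9 samples for each pair of neighbours. Across samples the ranges of Ikzf3 and Ikzf4 overlapped in cKO, as did those of Ikzf4 and Ikzf2. Inside each cKO sample the order still held, with Ikzf2 over Ikzf4 between 0.70 and 0.92. In WT no neighbours overlapped. The order of Helios and Eos depends on the length used. Per kb of coding sequence, Ikzf2 averaged 55.4 and Ikzf4 38.6 CPM per kb in WT, which turns the order round. The merged exons of Ikzf2 span 11.6 kb and those of Ikzf4 6.00 kb, whereas their coding sequences are 1599 and 2061 bases.

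**Figure D3:**
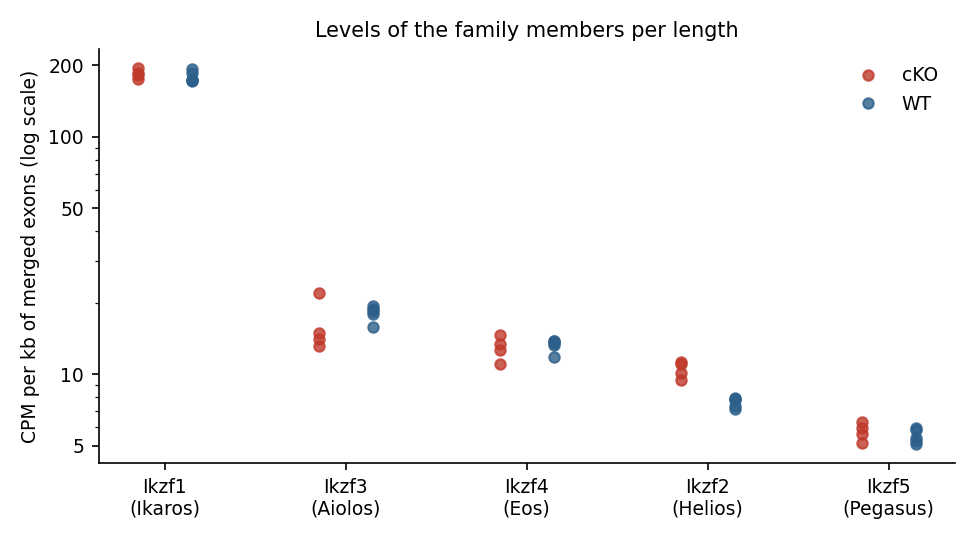
Level of each member in CPM per kb of merged exon length on a log axis, 1 point per sample, cKO left of WT, genes in falling order. On this length Ikzf1 lies at about 10 times the next gene, and the distance from Ikzf4 to Ikzf2 is smaller in cKO than in WT.

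Shares of the summed family RNA were taken per kb of merged exons only, and they too depend on the length used. Ikaros made up 80.3% in cKO and 80.1% in WT. Helios made up 4.57% in cKO and 3.4% in WT, and Aiolos 6.99% in cKO and 8.08% in WT. Eos made up 5.64% in cKO and 5.92% in WT, and Pegasus 2.50% in cKO and 2.45% in WT. The summed family RNA was 229 ± 8.71 CPM per kb in cKO and 224 ± 8.46 CPM per kb in WT, with overlap. Because members pair with each other, the ratios of Helios to Ikaros, Aiolos and Eos were also taken, from CPM per kb of merged exons. Their size depends on that length too. Ikzf2 over Ikzf1 was 0.057 ± 0.0063 in cKO and 0.043 ± 0.0041 in WT, without overlap. Ikzf2 over Ikzf3 was 0.68 ± 0.16 in cKO and 0.42 ± 0.022 in WT, also without overlap, with the lowest cKO value, 0.461, in cKO 2 and the highest WT value at 0.448. Ikzf2 over Ikzf4 was 0.82 ± 0.098 in cKO and 0.58 ± 0.055 in WT, without overlap. These ratios use the same Ikzf2 values and add no independent support.

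Among all tested genes, 98.9% had less RNA per kb than Ikzf1. The share was 56.6% for Ikzf2, 74.0% for Ikzf3, 67.1% for Ikzf4 and 45.1% for Ikzf5. Spread within genotypes also differed among the members. The residual SD of log2 CPM, after removal of each genotype's mean, was 0.070 for Ikzf1, 0.091 for Ikzf2, 0.11 for Ikzf5, 0.13 for Ikzf4 and 0.23 for Ikzf3. Aiolos thus varied more within genotypes than 77.0% of tested genes, and Ikaros more than 25.6%. The spread of Aiolos rests on cKO 2, as without that sample its residual SD was 0.10, larger than that of 45.8% of tested genes.

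The variation within genotypes does not use the contrast between them. Over the 9 samples, with each genotype's mean removed, Ikzf1 and Ikzf2 had a Pearson's r of -0.81 (exact permutation p = 0.0139, adjusted p = 0.139 over the 10 pairs of members) and a Spearman's rho of -0.68 (exact permutation p = 0.0573, adjusted p = 0.286), with permutation inside genotypes, two-sided. Without cKO 7 and WT 9, the samples farthest from the median, r was -0.52. In each genotype the sample with the most Ikzf1 had the least Ikzf2, which was cKO 7 in cKO and WT 9 in WT. Ikzf2 and Ikzf5 had an r of -0.71 (adjusted exact permutation p = 0.207) and Ikzf1 and Ikzf5 an r of 0.70 (adjusted exact permutation p = 0.207). None of the 10 pairs passed the adjustment.

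Helios is a marker of regulatory T cells, so the 16 listed genes of that lineage were set beside Ikzf2 in the same way. Tnfrsf9, which encodes the costimulatory receptor 4-1BB, had an r of 0.85 with Ikzf2 (exact permutation p = 0.00174, adjusted p = 0.0278 over 16 genes) and a rho of 0.77 (adjusted exact permutation p = 0.0611). Its r was 0.59 without cKO 7 and WT 9, so much of the relation rests on those samples. Tnfrsf18, which encodes GITR, had an r of 0.92 (exact permutation p = 0.00903, adjusted p = 0.0722) and a rho of 0.88 (adjusted exact permutation p = 0.0611), with an r of 0.88 without those samples. Tnfrsf4, which encodes OX40, had an r of 0.84 (adjusted exact permutation p = 0.0889) and a rho of 0.83 (adjusted exact permutation p = 0.0815). Foxp3, the defining factor of the lineage, had an r of 0.04 and a rho of -0.13 (adjusted exact permutation p = 0.946 and 0.840). Others of the list ran against Ikzf2, among them Gpr83 (r of -0.67), Izumo1r (-0.63) and Il2ra (-0.61). Their adjusted exact permutation p-values were 0.253, 0.321 and 0.321. The list thus had no common direction within genotypes. As said above, Tnfrsf9, Tnfrsf18, Tnfrsf4 and Il2ra are also induced in activated conventional T cells. Il2ra averaged 2569 CPM in cKO and 3182 CPM in WT. Whether activation or regulatory T cells underlie these values was not tested. All genes named in this paragraph beside Ikzf2 were singled out after their values were seen. The 1 pair past the adjustment was Tnfrsf9 by Pearson's r, and by Spearman's rho there was none.

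**Figure D4:**
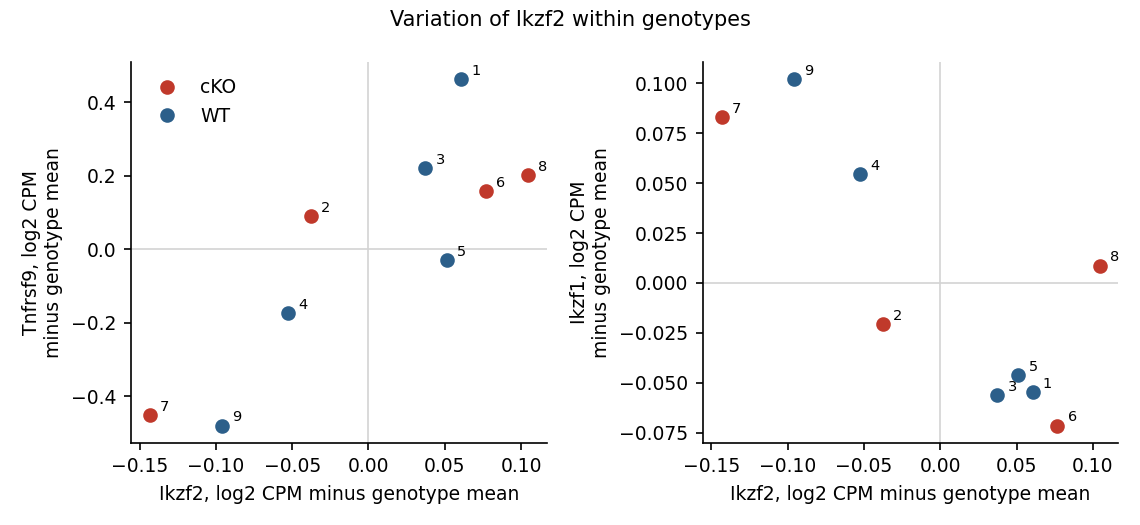
Log2 CPM minus the genotype mean in each sample, for Ikzf2 on the horizontal axis and Tnfrsf9 (left) or Ikzf1 (right) on the vertical axis, with replicate numbers. Samples cKO 7 and WT 9 lie lowest for Ikzf2 and Tnfrsf9 and highest for Ikzf1, with r of 0.85 for Tnfrsf9 and -0.81 for Ikzf1.

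Between the genotypes, no regulatory T cell gene of the list passed the test as higher in cKO. Of the 16 tested genes, 0 were called higher and 7 lower in cKO, against 7.0% and 8.82% among all tested genes. At an unadjusted p under 0.05 (edgeR's quasi-likelihood test), 1 was higher and 8 were lower. The median log2 change of the list was -0.27. This list and those below were chosen with earlier results of these data known, so nothing is read about the lists from these counts. Entpd1, which encodes the ectonucleotidase CD39, averaged 2.47 ± 0.324 CPM in cKO and 5.83 ± 0.857 CPM in WT (log2 change -1.24 ± 0.14, SE, adjusted p = 0.00042 by edgeR). Capg, an actin-capping protein gene, averaged 75.6 ± 6.31 CPM in cKO and 131 ± 16.9 CPM in WT (log2 change -0.80 ± 0.09, SE, adjusted p = 0.000437 by edgeR). Izumo1r, the gene of folate receptor 4, fell by 0.59 on the log2 scale (adjusted p = 0.0151 by edgeR), and Ebi3, an interleukin-35 subunit gene, fell by 0.67 (adjusted p = 0.0155 by edgeR). In all 4 genes, which were named for the smallest adjusted p, every cKO sample lay below every WT sample. Over the list, 6 of 16 genes had no overlap, against 15.9% of all tested genes.

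The other genes of the list called lower were Il2ra, Itgae and Nt5e, chosen for naming after their values were seen. Foxp3 was at 74.1, 92.0, 106 and 134 CPM in cKO, against 89.3, 105, 119, 94.6 and 106 CPM in WT. The groups overlapped, with both extremes in cKO, and the log2 change was -0.02 ± 0.14 (SE, adjusted p = 0.953 by edgeR). The receptor genes Tnfrsf18, Tnfrsf9 and Tnfrsf4 did not pass the test, with log2 changes of 0.12, 0.34 and 0.27 and adjusted p-values of 0.153, 0.211 and 0.273 by edgeR. Between 5 and 8 genes of the list were called lower with any 1 sample left out.

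The NuRD complex is the main partner of Ikaros in T cells. Of its 13 tested subunit genes, 0 were called higher and 3 lower, against 7.0% and 8.82% among all tested genes. At an unadjusted p under 0.05 by edgeR, 1 was higher and 3 were lower. The median log2 change of the list was -0.01. Chd3, an ATPase of the complex, averaged 498 ± 19.0 CPM in cKO and 564 ± 24.6 CPM in WT (log2 change -0.18 ± 0.04, SE, adjusted p = 0.0141 by edgeR). Rbbp7, a histone-binding subunit, was at 320 ± 4.15 CPM in cKO and 354 ± 12.4 CPM in WT (log2 change -0.15 ± 0.03, SE, adjusted p = 0.0147 by edgeR), and its paralog Rbbp4 was at 418 ± 8.65 CPM in cKO and 454 ± 13.4 CPM in WT (log2 change -0.12 ± 0.03, SE, adjusted p = 0.0295 by edgeR). The call for Rbbp4 was lost in 8 of 16 alternatives. The groups did not overlap for these 3 genes, against 15.9% of all tested genes, and the other 10 did not pass the test.

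Of the 5 genes of the CtBP and Sin3 corepressors, 1 was called higher and 1 lower, against 7.0% and 8.82% among all tested genes. The median log2 change of the list was -0.04. Ctbp2 was low, at 1.12 ± 0.254 CPM in cKO and 0.490 ± 0.158 CPM in WT (log2 change 1.19 ± 0.27, SE, adjusted p = 0.0134 by edgeR). Sin3b, a scaffold of the Sin3 complex, was at 75.0 ± 2.54 CPM in cKO and 84.2 ± 3.95 CPM in WT (log2 change -0.17 ± 0.04, SE, adjusted p = 0.0232 by edgeR). Its call was lost without cKO 2, cKO 8 or WT 9.

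Casein kinase 2 (CK2) and protein phosphatase 1 (PP1) act on the Ikaros protein after translation, and the cereblon ligase takes up human Ikaros and Aiolos when a drug such as lenalidomide is present. Of the 6 cereblon ligase genes 0 passed the test with edgeR, DESeq2 or limma-voom, and 0 had an unadjusted p under 0.05 in edgeR's test. Among all tested genes 15.8% passed by edgeR. Ddb1, the ligase adaptor, was at 649 ± 22.4 CPM in cKO and 619 ± 32.6 CPM in WT, and Crbn, cereblon itself, at 87.4 ± 2.65 CPM in cKO and 85.4 ± 2.22 CPM in WT (adjusted p = 0.308 and 0.575 by edgeR). Of the 6 CK2 and PP1 genes, 0 were called higher and 2 lower, against 7.0% and 8.82% among all tested genes. The median log2 change of the list was 0.03. Ppp1ca, a PP1 catalytic subunit, was at 547 ± 17.5 CPM in cKO and 602 ± 16.9 CPM in WT (log2 change -0.14 ± 0.03, SE, adjusted p = 0.0194 by edgeR), a call lost without cKO 6 or cKO 8. Csnk2b, the CK2 regulatory subunit, was at 126 ± 0.825 CPM in cKO and 137 ± 4.65 CPM in WT (log2 change -0.13 ± 0.03, SE, adjusted p = 0.028 by edgeR), a call lost in 7 of 16 alternatives.

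Genes reported elsewhere as regulated by Ikaros family members were called in both directions, as were tested genes in general. Of 14 listed, 12 were tested, with 2 called higher and 1 lower, against 7.0% and 8.82% among all tested genes. At an unadjusted p under 0.05 by edgeR, 3 were higher and 2 lower. With so few genes, nothing is read about the list from these counts. The median log2 change was -0.02, and 0.23 both without the count filter and with the stricter one, so it has no stable sign. Notch3, a Notch receptor gene, was at 3.13 ± 0.611 CPM in cKO and 1.33 ± 0.329 CPM in WT (log2 change 1.23 ± 0.20, SE, adjusted p = 0.00332 by edgeR). Dtx1, a regulator and target of Notch signalling, was at 12.5 ± 0.881 CPM in cKO and 7.94 ± 1.30 CPM in WT (log2 change 0.66 ± 0.11, SE, adjusted p = 0.00431 by edgeR). Neither gene overlapped between the genotypes, and among all tested genes 15.9% had no overlap.

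Prdm1, which encodes the repressor Blimp-1, was at 6.59 ± 2.67 CPM in cKO and 11.6 ± 2.45 CPM in WT with overlap (log2 change -0.81 ± 0.24, SE, adjusted p = 0.0448 by edgeR), and its call was lost in 7 of 16 alternatives. Il2, a cytokine gene that Ikaros and Aiolos repress, was at 19.97 ± 13.3 CPM in cKO and 14.9 ± 17.4 CPM in WT (adjusted p = 0.706 by edgeR). Tbx21, which encodes the Th1 factor T-bet, was at 71.8 ± 28.2 CPM in cKO and 35.2 ± 22.2 CPM in WT (adjusted p = 0.134 by edgeR). Il2 and Tbx21 were singled out after their values were seen, and both varied widely within genotypes. The other 7 tested genes did not pass the test.

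**Figure D5:**
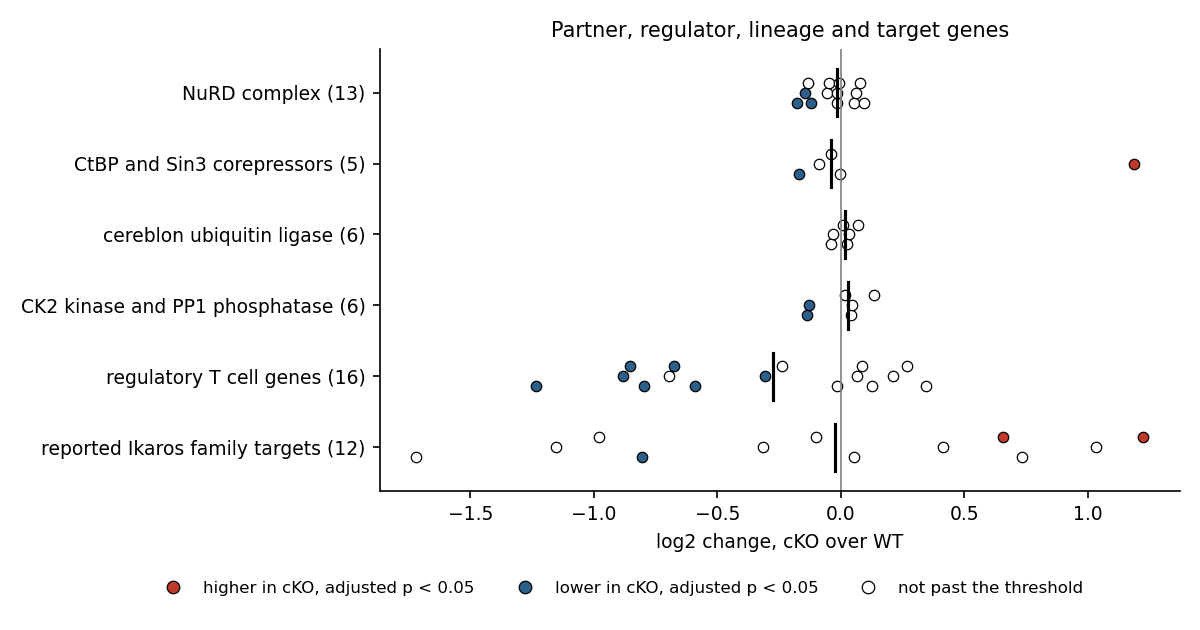
Fitted log2 change, cKO over WT, of every tested gene in each list (number of genes in brackets), with filled points past an adjusted p of 0.05 in edgeR's test and a black bar at the list's median. The median of the regulatory T cell genes lies at -0.27, and those of the other lists lie between -0.04 and 0.03.

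The nearest tested protein-coding gene on each side of each member was also read. For Ikzf2 these lie far away, Lancl1 at 2492341 bases and Bard1 at 1340252 bases. Lancl1 was at 26.3 ± 1.04 CPM in cKO and 24.1 ± 1.54 CPM in WT (adjusted p = 0.15 by edgeR), and Bard1 at 76.4 ± 6.36 CPM in cKO and 88.2 ± 7.80 CPM in WT (adjusted p = 0.0765 by edgeR). Neither passed the test with all samples, though Lancl1 did not overlap between the genotypes, and Bard1 passed without WT 1 (log2 change -0.25, adjusted p = 0.0274 by edgeR). Acadsb, 79 bases from Ikzf5, was higher in cKO at 27.4 ± 1.75 CPM, against 23.0 ± 0.959 CPM in WT (log2 change 0.25 ± 0.05, SE, adjusted p = 0.0113 by edgeR), without overlap.

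Suox, near Ikzf4, was at 28.7 ± 1.99 CPM in cKO and 24.8 ± 1.64 CPM in WT (log2 change 0.21 ± 0.06, SE, adjusted p = 0.0476 by edgeR), a call lost in 9 of 16 alternatives. Fignl1, near Ikzf1, fell by 0.17 on the log2 scale (adjusted p = 0.0193 by edgeR), a call lost without cKO 6 (adjusted p = 0.0652 by edgeR). The remaining neighbours, Spata48, Grb7, Zpbp2, Rps26 and 2310057M21Rik, did not pass the test. Among all tested genes 15.8% passed and 15.9% had no overlap. Nothing is read about the loci from so few neighbours.

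The genes whose levels within genotypes were most like each member's were found by Pearson's r over the 9 samples among the 13200 genes that averaged 1 CPM or more. They are given as a description, since with 9 samples and so many genes high values arise readily. For Ikzf1 they were Ncapg2, Tnrc6c and Iqgap1 (r of 0.98 each), and 255 genes had an r over 0.9. For Ikzf2 they included Src (0.98) and AU022252 (0.96), with 36 genes over 0.9. For Ikzf3 they were Tbc1d1 (0.98), Inpp5d (0.98) and Glipr2 (0.97), with 86 genes over 0.9, and the lowest r for Glipr2 with 1 sample left out was 0.92. For Ikzf4 they were Ankrd9 (0.97), Fhl3 (0.95) and 6430571L13Rik (0.94), with 15 genes over 0.9. For Ikzf5 they were Agap2 (0.98), Sipa1l2 (0.97) and Camk1d (0.97), with 57 genes over 0.9.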

How the data were processed

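The authors deposited 1 table of raw counts per gene, with whole numbers that were not normalized and 1 column per sample. Libraries were stranded and mRNA-enriched per the labels' protocols. The submitters' processing notes name bcl2fastq 2.17 and mm10, and for the aligner, the counter and its strand setting nothing is stated in the sources used here. Symbols were matched for 37607 of 39017 IDs. Positions, lengths and transcript sequences came from GENCODE M21.

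The test was edgeR 4.0.16 (quasi-likelihood F test, TMM, filterByExpr, R 4.3.3) on all 9 samples, two-sided, with Benjamini-Hochberg adjusted p below 0.05 over 14693 genes. It was tested on simulated data. Log2 CPM used a prior count of 2. Permutation p-values within genotypes were added to a pattern first planned as a description. Coding sequence was the longest open reading frame of a member's protein-coding transcripts. Alternatives were DESeq2 1.42.0, limma-voom 3.58.1, other scalings and filters, robust fitting and omission of each sample. Nothing says that samples came from separate animals. The p-values of edgeR set the difference between genotypes against the spread between these samples, which need not be the spread between animals.

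The members and lists were chosen with earlier results of these data known. Named genes were the members, Kdm6a, Cd4, the called genes with the smallest adjusted p in every list (at most 4, or 2 where none was called), the 2 most abundant genes of each marker list, the 3 genes most like each member and the nearest tested neighbours. Of the genes most like Ikzf2, 1 is not reported here.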

Additional observations from a re-analysis of the deposited data

Results flagged for a closer look

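In 44 groups of 4 or 5 samples, 3 held a highest or lowest value far from the others by Dixon's 95% limit, where chance gives about 1 in 20. Ikzf4 was at 70.6 CPM in WT 5, below the other WT samples. Entpd1 was at 1.98 CPM in cKO 2, below the other cKO samples. Notch3 was at 0.75 CPM in WT 4, below the other WT samples.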

How the results depend on the processing

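No paired analysis was possible because the genotypes share no replicate number. The log2 change of Ikzf2 lay between 0.42 and 0.50 under all 16 alternatives, which is a description, as the member was chosen on this contrast. With 1 sample left out, the number of genes called cKO over WT ranged from 1263 (without cKO 6) to 2933, with 1504 without cKO 8 and 1528 without WT 4, and the members called from 1 to 2 (without cKO 2). In the same runs the regulatory T cell genes called lower ranged from 5 to 8, the NuRD genes called higher from 0 to 1 (without WT 1), the CtBP and Sin3 genes called lower from 0 (without cKO 2, cKO 8 or WT 9) to 1, and the CK2 and PP1 genes called lower from 0 (without cKO 6 or cKO 8) through 1 (without cKO 7, WT 3, WT 5 or WT 9) to 2. The reported targets called higher ranged from 2 to 4 (without WT 1), and those called lower from 0 (without cKO 6, cKO 7, WT 3, WT 4 or WT 5) to 1. Without the count filter 1 CK2 or PP1 gene and 2 reported targets were lower. DESeq2 called 2 reported targets lower and robust fitting 0. With at least 1 CPM in 4 samples, 0 CtBP and Sin3 genes were higher, because Ctbp2 is below that level. Per kb of coding sequence, WT levels were 647 CPM for Ikzf1, 104 for Ikzf3, 55.4 for Ikzf2, 38.6 for Ikzf4 and 25 for Ikzf5, and per kb of the longest transcript 201, 34.3, 9.53, 15.4 and 7.10 CPM. Where a value moved otherwise, the cause was not tested.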
